A study of Mus musculus with 10 samples.

Results

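Immunoglobulin variable (V) genes encode most of the antigen-binding end of an antibody. A B cell joins 1 heavy V segment (Ighv) and 1 light V segment (for most mouse B cells a kappa segment, Igkv) to its joining segments while it matures, and all its descendants carry that same choice, so cells of 1 lineage share their V genes, although unrelated cells can pick the same ones. Plasma cells, the antibody-secreting end stage, fill their transcript pool with the 1 rearranged heavy and the 1 rearranged light chain, whereas a resting B cell transcribes the same genes at a low level. The gene table held 345 entries whose symbol starts with Ighv or Igkv among 32285 genes, and the 216 of them with 20 or more UMIs (unique molecular identifiers, each standing for 1 captured transcript) summed over the 5 libraries are described here. They were 113 Ighv genes, spread over chr12:113574245-116000461, and 103 Igkv genes, spread over chr6:67555497-70704177 (GRCm38). GENCODE vM21 types 195 of the 216 as functional V genes and 21 as V pseudogenes.

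The libraries came from mouse livers that held metastases of colorectal cancer, with viable cells sorted without antibody staining and read by 10x single-cell RNA sequencing. Liver 22 (IFNa + aCTLA4, n = 1, called the combination) had received IFNa together with anti-CTLA-4, which blocks a receptor that restrains T cells. Livers 18 and 23 (IFNa, n = 2) had received a lentiviral vector for IFNa, a type I interferon, and livers 11 and 25 (Control, n = 2) a control lentiviral vector. Strain, age, tumour line, the vector's promoter and the number of mice behind the livers are not given in the sources used here. The p-values therefore rest on differences between libraries of 1 group, part of which may be technical, and the combination, with 1 library, was assumed to vary like the other groups.

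The 216 members were chosen on their UMI totals, and the combination supplied most of those UMIs. The highest entries under the minimum were Ighv1-79 with 19, Igkv4-81 with 15 and Ighv1-13 with 13 UMIs, and the lowest above it were Ighv1-31 with 22, Ighv1-37 with 23 and Ighv1-4 with 23. A further 84 entries had no UMI and 45 had 1 to 19. Without the combination library, 206 of the 216 would still have reached the minimum.

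A plasma cell was taken as a barcode with 10 or more Jchain UMIs (the joining chain of secreted IgA and IgM) and at least 1 Mzb1 UMI (a chaperone of antibody-secreting cells), and a B cell as a barcode outside that gate with Cd79a and Ms4a1. The dominant V gene of a cell is the one with over 50% of its V UMIs of that chain and at least 2 UMIs. Printed next, because the plasma cell results turn on them, are the 4 Ighv and the 4 Igkv genes dominant in the most plasma cells, except Igkv1-110, in whose place stands Igkv17-121, the partner of the leading heavy gene of IFNa 23. Each run is the 3′ end of the germline coding sequence (GENCODE vM21, GRCm38, 5′ to 3′ on the coding strand). Capitals mark the bases that differ from the closest other member of the same chain or have no aligned base in it.
Ighv8-8: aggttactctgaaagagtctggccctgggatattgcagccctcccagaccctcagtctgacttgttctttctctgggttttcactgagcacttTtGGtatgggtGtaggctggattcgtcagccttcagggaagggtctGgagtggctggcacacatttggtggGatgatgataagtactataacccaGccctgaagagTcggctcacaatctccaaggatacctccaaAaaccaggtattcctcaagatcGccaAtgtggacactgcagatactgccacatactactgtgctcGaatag
Ighv1-72: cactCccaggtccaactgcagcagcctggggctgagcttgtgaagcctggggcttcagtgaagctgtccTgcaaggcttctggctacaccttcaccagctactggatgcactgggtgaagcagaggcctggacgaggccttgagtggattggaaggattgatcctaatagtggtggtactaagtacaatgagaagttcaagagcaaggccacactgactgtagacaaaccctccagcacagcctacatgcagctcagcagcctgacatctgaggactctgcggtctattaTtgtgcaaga
Ighv1-82: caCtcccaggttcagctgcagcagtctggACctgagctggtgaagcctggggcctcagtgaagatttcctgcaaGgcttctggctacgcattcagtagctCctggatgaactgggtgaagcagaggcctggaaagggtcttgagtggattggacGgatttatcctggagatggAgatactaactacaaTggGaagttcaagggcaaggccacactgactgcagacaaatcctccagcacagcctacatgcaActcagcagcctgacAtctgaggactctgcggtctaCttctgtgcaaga
Ighv1-69: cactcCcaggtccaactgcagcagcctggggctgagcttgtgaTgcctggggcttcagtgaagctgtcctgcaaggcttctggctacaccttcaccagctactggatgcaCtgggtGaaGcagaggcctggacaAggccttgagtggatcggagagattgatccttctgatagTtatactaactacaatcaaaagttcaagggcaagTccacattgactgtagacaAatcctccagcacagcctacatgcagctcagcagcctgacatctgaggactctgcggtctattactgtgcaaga
Igkv8-21: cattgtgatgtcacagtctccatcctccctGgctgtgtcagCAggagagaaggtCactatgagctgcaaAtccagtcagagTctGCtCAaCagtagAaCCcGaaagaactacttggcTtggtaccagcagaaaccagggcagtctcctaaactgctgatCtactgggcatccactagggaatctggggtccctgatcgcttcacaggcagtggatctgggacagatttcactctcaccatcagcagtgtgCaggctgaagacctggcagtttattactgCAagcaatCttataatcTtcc
Igkv4-59: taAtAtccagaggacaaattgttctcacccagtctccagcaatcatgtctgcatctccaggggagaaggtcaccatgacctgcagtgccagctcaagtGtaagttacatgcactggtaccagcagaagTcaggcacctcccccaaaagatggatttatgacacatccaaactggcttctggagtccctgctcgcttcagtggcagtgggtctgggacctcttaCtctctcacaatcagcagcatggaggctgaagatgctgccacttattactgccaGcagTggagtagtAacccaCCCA
Igkv12-44: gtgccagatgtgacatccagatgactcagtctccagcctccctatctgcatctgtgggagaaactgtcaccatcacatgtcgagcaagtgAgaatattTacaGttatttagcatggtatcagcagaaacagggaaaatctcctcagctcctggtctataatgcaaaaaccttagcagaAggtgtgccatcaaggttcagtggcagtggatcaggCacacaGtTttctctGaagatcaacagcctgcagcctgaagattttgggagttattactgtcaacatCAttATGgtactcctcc
Igkv17-121: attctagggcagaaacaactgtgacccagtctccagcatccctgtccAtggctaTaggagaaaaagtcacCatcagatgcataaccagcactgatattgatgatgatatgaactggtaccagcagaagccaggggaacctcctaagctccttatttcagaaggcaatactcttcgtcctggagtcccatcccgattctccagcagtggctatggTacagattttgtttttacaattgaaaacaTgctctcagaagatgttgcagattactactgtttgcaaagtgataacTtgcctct

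Ighv8-8 lies at chr12:115294062-115294361, Ighv1-72 at chr12:115757984-115758283, Ighv1-82 at chr12:115952538-115952837 and Ighv1-69 at chr12:115623161-115623460, all on the minus strand. Igkv8-21 lies at chr6:70314895-70315194, Igkv4-59 at chr6:69438218-69438517 and Igkv12-44 at chr6:69814631-69814928 on the minus strand, and Igkv17-121 at chr6:68037021-68037318 on the plus strand. Each run sits inside the V exon. Ighv1-72 is the hardest of these to tell from a relative: it differs from Ighv1-62-3 by 3 bases and is 99.15% identical to it over the coding sequence. The other 7 are 93.37% (Igkv8-21 against Igkv8-30) to 97.45% (Igkv17-121 against Igkv17-127) identical to their closest member. Of the 216 members, 100 share at least 1 stretch of 90 bases with another V entry, so reads from such stretches cannot be assigned to 1 gene, and a rearranged V gene can also carry mutations that move reads to a relative. Of the 573 UMIs of Ighv1-62-3 in the combination, 550 (96.0%) lay in barcodes with 10 or more Ighv1-72 UMIs, and the other 4 libraries held 17, 5, 1 and 0 UMIs in IFNa 18, IFNa 23, Control 11 and Control 25. Where its UMIs come from was not tested.

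The combination stood apart from the other 4 libraries in its V transcripts before any cell was gated. Members made up 4.67% of all UMIs in IFNa + aCTLA4 22, 0.259% and 0.816% in IFNa 18 and 23, and 0.155% and 1.29% in Control 11 and 25. The library totals were 69856071, 48124364, 53608465, 55351421 and 10464216 UMIs in that order, and 8814, 5912, 5296, 5363 and 844 cells were kept, so Control 25 carries the widest errors. Pairs of libraries shared 4 to 74 cell barcodes, at most 2.01% of the smaller library.

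The combination also held 989 kept barcodes (11.2%) of a kind not met in the other 4 libraries. Many plasma, B and T cell results are given with and without these barcodes, and most shares of single genes in B cells only with them. They form 7 sets, and in each set the same Ighv and Igkv pair led at least 50 barcodes that had 20 or more and under 1000 V UMIs apiece. The sets were led by Ighv1-72/Igkv4-59 with 278 barcodes, Ighv1-66/Igkv3-2 with 143, Ighv8-8/Igkv8-21 with 141, Ighv1-82/Igkv12-44 with 130, Ighv3-6/Igkv14-111 with 118, Ighv1-59/Igkv8-21 with 108 and Ighv1-69/Igkv1-110 with 71. They were defined after their values were seen and are called shared-pair barcodes here. Outside the B and plasma gates, the most frequent pair led 200 barcodes in the combination, against 1 and 2 in IFNa 18 and 23 and 2 and 1 in Control 11 and 25.

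By the gate on Jchain and Mzb1, plasma cells were 307 of 8814 cells in IFNa + aCTLA4 22 (3.48%, exact 95% interval 3.11 to 3.89), 6 and 28 in IFNa 18 and 23 (0.101%, 0.0373 to 0.221, and 0.529%, 0.352 to 0.763), and 4 and 7 in Control 11 and 25 (0.0746%, 0.0203 to 0.191, and 0.829%, 0.334 to 1.70). Intervals here cover counting error only. The combination's share lay above the interval of each of the other libraries, and the Control livers differed from each other by more than their intervals.
The gate held 2 kinds of barcode in the combination. Of its 307 barcodes, 166 had under 1000 V UMIs, with a median of 369 V UMIs and 2839 UMIs in all. Among these 166, 82.5% carried Cd3e (T cells) and 85.5% Lyz2 (myeloid cells), and 163 of the library's gated barcodes belonged to the shared-pair sets. The barcodes with 1000 or more V UMIs numbered 141 in IFNa + aCTLA4 22, 4 and 27 in IFNa 18 and 23, and 3 and 7 in Control 11 and 25. That is 1.60% of kept cells in the combination (exact 95% interval 1.35 to 1.88), 0.0677% (0.0184 to 0.173) and 0.510% (0.336 to 0.741) in IFNa 18 and 23, and 0.0559% (0.0115 to 0.163) and 0.829% (0.334 to 1.70) in Control 11 and 25. At this minimum the combination's share lay inside the interval of Control 25 and above those of the other 3 libraries. The minimum was added after the data were seen. Of these 141 in the combination, 2.13% carried Cd3e and 9.22% Lyz2. The 8 plasma cell markers counted were Jchain, Mzb1, Xbp1, Sdc1, Tnfrsf17, Prdm1, Irf4 and Derl3. Every cell has the first 2, because the gate requires them. The cells held on average 6.70 of the 8, against 7.25 and 7.15 in IFNa 18 and 23 and 7.67 and 6.86 in Control 11 and 25.

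Over all gated plasma cells the median was 572 V UMIs in the combination, 3261 and 15234.5 in IFNa 18 and 23, and 9746.5 and 15620 in Control 11 and 25. For plasma cells with 1000 or more V UMIs, a high V content was fixed by that minimum. Among these the median was lowest in IFNa 18, which had 4 such cells. It was 13887 V UMIs per cell in the combination, 7985.5 and 15318 in IFNa 18 and 23, and 13154 and 15620 in Control 11 and 25. B cells held far less, with medians of 47 V UMIs per cell in the combination, 40 and 50 in IFNa, and 38 and 49 in Control. Ighv UMIs exceeded those of the heavy constant genes 4.16-fold in plasma cells of the combination with 1000 or more V UMIs. In such cells the excess was 4.66-fold and 3.94-fold in IFNa 18 and 23, and 6.57-fold and 5.49-fold in Control 11 and 25. The labels name a single cell 3′ kit, whereas a V segment sits at the 5′ end of its transcript.

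Nearly every plasma cell had 1 dominant heavy and 1 dominant kappa gene, as in 303 of the 307 gated barcodes of the combination. There the dominant gene held a median of 97.9% of the heavy and 98.6% of the kappa V UMIs of a gated cell. Most plasma cells of the combination shared their pair with other cells. Among its 139 cells with 1000 or more V UMIs and both chains called, there were 35 pairs, and 86.3% of the cells had a pair found in 2 or more cells. Ighv8-8/Igkv8-21 led 30 cells and Ighv1-72/Igkv4-59 led 28, together 41.7%. Ighv1-69/Igkv1-110 led 15, Ighv1-59/Igkv8-21 and Ighv1-82/Igkv12-44 led 7 each, and Ighv1-66/Igkv3-2 led 5. None of these pairs led a plasma cell of the other 4 libraries.

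IFNa 23 had a leading pair of its own, Ighv1-69/Igkv17-121, in 10 of its 27 paired cells with 1000 or more V UMIs. Ighv8-12/Igkv4-72 and Ighv1-50/Igkv1-117 led 2 cells each, and 51.9% of its cells had a pair found in 2 or more. IFNa 18 had 3 paired cells with 3 pairs, 2 of them led by Ighv1-9, with Igkv1-117 (28694 V UMIs) and with Igkv3-10 (12354 V UMIs). In Control 25, Ighv1-58/Igkv14-100 and Ighv8-8/Igkv12-46 led 2 of 6 paired cells each. The Ighv1-58/Igkv14-100 cells had 40981 and 30873 V UMIs, of which 12097 and 8315 were Ighv1-58 and 14871 and 11609 Igkv14-100. The lowest share of a dominant kappa gene in that library was 51.5% of a cell's kappa V UMIs. The 3 paired cells of Control 11 had 3 pairs, 1 of them Ighv11-2/Igkv14-126 with Ighm (20756 V UMIs). Cells without a kappa call in the small libraries carried lambda V UMIs instead: Ighv1-22 in IFNa 18 with 5582, and Ighv1-5 in Control 25 with 6966. In IFNa 23, 2 cells with a kappa call had more lambda than kappa V UMIs. Ighv1-26/Igkv2-116 had 12 Igkv2-116 and 9884 lambda V UMIs, and Ighv1-9/Igkv6-17 had 119 Igkv6-17 and 8101 lambda V UMIs. So did 5 of the 141 cells of the combination with 1000 or more V UMIs, called for kappa or not.

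**Figure D1:**
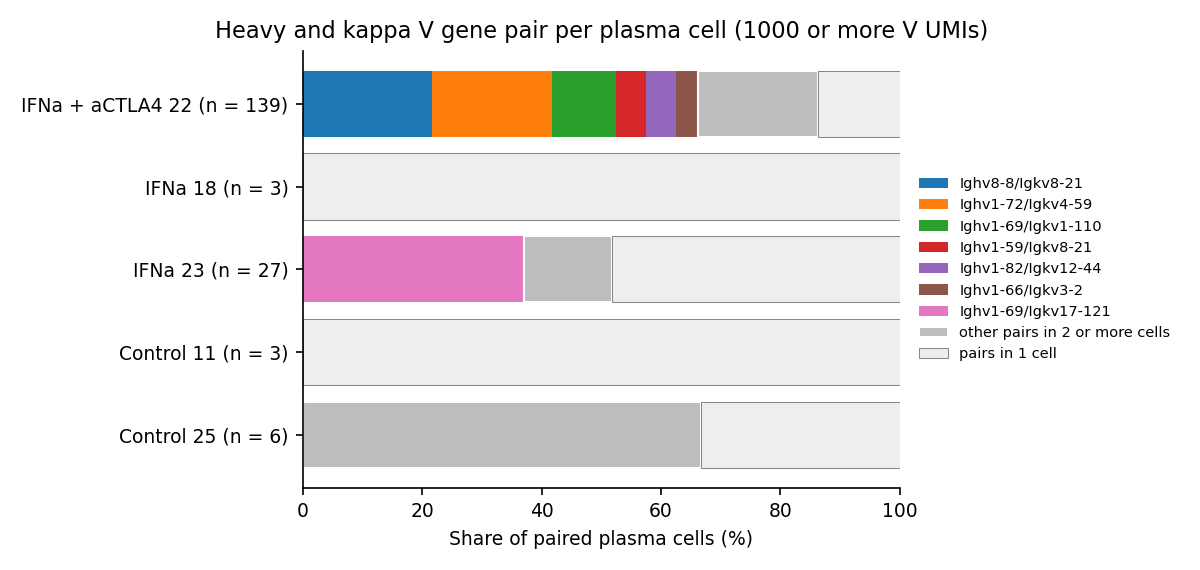
Share of plasma cells with 1000 or more V UMIs (%) by the pair of heavy and kappa V genes that dominates them, 1 bar per library with the number of paired cells. Coloured pieces are pairs named in the text, dark grey holds other pairs found in 2 or more cells and light grey pairs found in 1 cell. In IFNa + aCTLA4 22, 86.3% of cells fall in repeated pairs, and Ighv1-69/Igkv17-121 is the longest piece in IFNa 23.

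The gate without the V minimum put other pairs in front in the combination. Ighv1-72/Igkv4-59 then led 93 of 303 paired barcodes, Ighv8-8/Igkv8-21 led 69, Ighv1-82/Igkv12-44 led 59 and Ighv1-69/Igkv1-110 led 16. Ighv1-82/Igkv12-44 lost most of its barcodes at 1000 V UMIs, 59 against 7 cells. The most frequent heavy gene of the combination led 31.6% of gated cells, and the most frequent at 1000 V UMIs led 22.1%. Over the 5 libraries the gate's 4 most frequent heavy genes were Ighv1-72 in 96 cells, Ighv8-8 in 71, Ighv1-82 in 64 and Ighv1-69 in 28, and its 4 most frequent kappa genes were Igkv4-59 in 96, Igkv8-21 in 76, Igkv12-44 in 59 and Igkv1-110 in 17. Effective gene number (inverse Simpson index, the number of equally used genes that gives the same chance of drawing 1 gene in 2 draws) was 5.03 heavy and 4.96 kappa genes for gated cells of the combination, and 8.35 and 7.73 at 1000 V UMIs. For IFNa 23 it was 7.56 and 7.56, and 7.31 and 7.02 at 1000 V UMIs. The other 3 libraries held 4 to 7 gated cells, too few for an index to be compared.

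The totals of the leading genes differed between libraries by orders of magnitude, along with the presence of plasma cells led by them. Summed over all barcodes of a library, Igkv8-21 had 559836 UMIs in the combination, 328 and 149 in IFNa 18 and 23, and 107 and 11 in Control 11 and 25. Ighv8-8 had 474693 in the combination, 370 and 612 in IFNa, and 388 and 11307 in Control, where Control 25 held the 2 Ighv8-8/Igkv12-46 plasma cells. Ighv1-69 had 66733 in the combination, 165 and 41834 in IFNa, and 114 and 27 in Control.
Ighv8-8 within Control and Ighv1-69 within IFNa were thus high in 1 of the 2 livers. Igkv17-121 too was high in 1 IFNa liver, with 22582 UMIs in the combination, 1704 and 117362 in IFNa 18 and 23, and 517 and 180 in Control 11 and 25. Igkv12-44 had 149641 in the combination, 1373 and 1429 in IFNa, and 1060 and 123 in Control.

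The same V pair occurred with several constant genes, which a lineage exchanges by class switching while its V gene stays. In the combination, the 30 Ighv8-8/Igkv8-21 cells were led by Ighg1 in 18, Ighg2b in 6, Ighg2c in 3 and Igha in 3. The 28 Ighv1-72/Igkv4-59 cells had Ighg2c in 16, Ighg3 in 5, Ighg2b in 4 and Igha in 3, and none had Ighg1. The 15 Ighv1-69/Igkv1-110 cells had Ighg1 in 9, Ighg2b in 3 and Igha in 3. In IFNa 23, the 10 Ighv1-69/Igkv17-121 cells had Igha in 7 and Ighg2b in 3. Ighm, the constant gene before switching, led 1 of the 141 plasma cells of the combination.

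A second V gene had UMIs in every cell of the 2 largest pairs. Among the 30 Ighv8-8/Igkv8-21 cells, Ighv1-11 had UMIs in 30, at 0.109% to 1.03% of the heavy V UMIs (median 0.434%), against 1 of 111 other plasma cells of the library. Igkv13-84 had UMIs in the same 30 cells (0.0764% to 1.99%, median 0.572%), against 0 of 104 others. In the 28 Ighv1-72/Igkv4-59 cells, Ighv3-3 had UMIs in 28, at 0.507% to 9.34% (median 2.40%), against 2 of 110 others. These 3 second genes share no 90-base stretch with the dominant gene and are 59.5%, 68.1% and 58.2% identical to it. Ighv1-11 and Ighv3-3 were found with every constant gene of their pair: Ighv1-11 medians ran from 0.364% in Ighg2b cells to 0.488% in Ighg1 cells, and Ighv3-3 medians from 2.09% in Ighg3 cells to 2.91% in Igha cells.
Other second genes were near copies of the dominant one. Igkv4-71 had UMIs in 28 of 28 Ighv1-72/Igkv4-59 cells (median 0.476%) and is 95.5% identical to Igkv4-59. Ighv1-74, 96.0% identical to Ighv1-69, had UMIs in 15 of 15 Ighv1-69/Igkv1-110 cells of the combination (median 1.96%) and in 10 of 10 Ighv1-69/Igkv17-121 cells of IFNa 23 (median 2.18%). Igkv17-127, 97.5% identical to Igkv17-121, had UMIs in those same 10 (median 1.93%). Each of these shares at least 1 stretch of 90 bases with the dominant gene. The second genes were chosen after their values were seen, and where their UMIs come from was not tested.

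**Figure D2:**
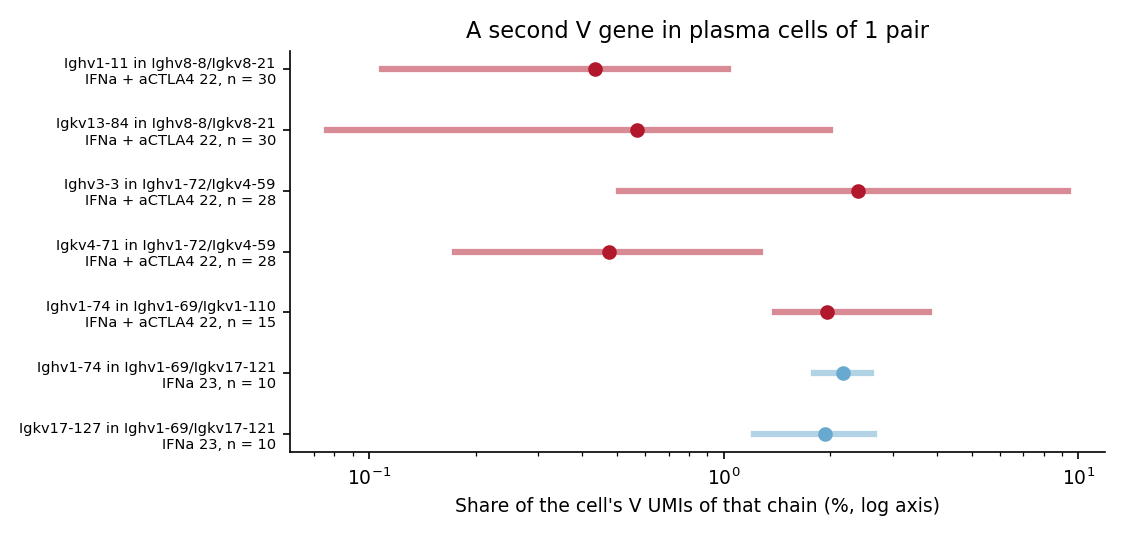
Share of a cell's V UMIs of 1 chain (%, log axis) held by the most usual second V gene, for plasma cells of 1 pair with 1000 or more V UMIs. Points are medians over cells and lines run from the lowest to the highest cell. Ighv3-3 in Ighv1-72/Igkv4-59 cells has the highest median, 2.40%.

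The shared-pair barcodes carried V pairs of the combination's plasma cells. Their lower V content was fixed by how they were defined, at under 1000 V UMIs, against 1000 or more in the plasma cells compared. Their median was 105.5 to 293 V UMIs per barcode by set, of which the leading kappa gene held 96.7% to 98.5% and the leading heavy gene 85.4% to 100%. Plasma cells with 1000 or more V UMIs and the same pair had medians of 10035 to 20544.5. The V UMIs of a whole set summed to 11759 to 57229. Of the runner-up genes, Ighv1-11 had UMIs in 58 of the 141 Ighv8-8/Igkv8-21 barcodes (0.366% of their summed heavy V UMIs), and Ighv3-3 in 174 of the 278 Ighv1-72/Igkv4-59 barcodes (2.25%). Igkv3-1 had UMIs in 0 of the 71 Ighv1-69/Igkv1-110 barcodes, against 11 of the 15 plasma cells of that pair and 11 of 125 others. Its median in those 15 was 0.0326% of the kappa V UMIs. At that level the set, with 11759 V UMIs in all, could hold few Igkv3-1 UMIs, so nothing is read from the 0.
Some sets differed in their constant genes from plasma cells of the same pair. The Ighv8-8/Igkv8-21 set had Ighg2b in 92 barcodes, Igha in 47 and Ighg1 in 1, whereas 18 of the 30 plasma cells of that pair had Ighg1. The Ighv1-82/Igkv12-44 set had Ighg2c in 56 barcodes and Ighg2b in 41, whereas 6 of the 7 plasma cells had Ighg2b. Other sets had the leading constant gene of their plasma cells. The Ighv1-72/Igkv4-59 set had Ighg2c in 156 barcodes and Ighg3 in 115 (16 and 5 of 28 plasma cells), the Ighv1-66/Igkv3-2 set Ighg2b in 133 (4 of 5), the Ighv1-59/Igkv8-21 set Ighg1 in 102 (6 of 7) and the Ighv1-69/Igkv1-110 set Ighg1 in 69 (9 of 15).

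Markers of other cell types moved with these barcodes. Cd3e and Lyz2 occurred together in 13.9% to 64.8% of a set, against 10.5% of T cells and 13.2% of B cells of the combination with a like number of UMIs. Their median of 1346.5 to 2486 UMIs compares with 4596 over all kept cells of the library. Gene counts varied less between the barcodes of 1 set than between cells of 1 type: the median ratio of variance to mean over genes was 1.04 to 1.26 in the sets, 1.57 in those T cells and 1.49 in those B cells, where 1 is the ratio of pure counting error. Depth and genes were not equal in this comparison. Those T and B cells had medians of 2593.5 and 2145.5 UMIs. The ratios rest on 158 to 495 genes in the sets, 333 in the T cells and 248 in the B cells. What made these barcodes was not tested.

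**Figure D3:**
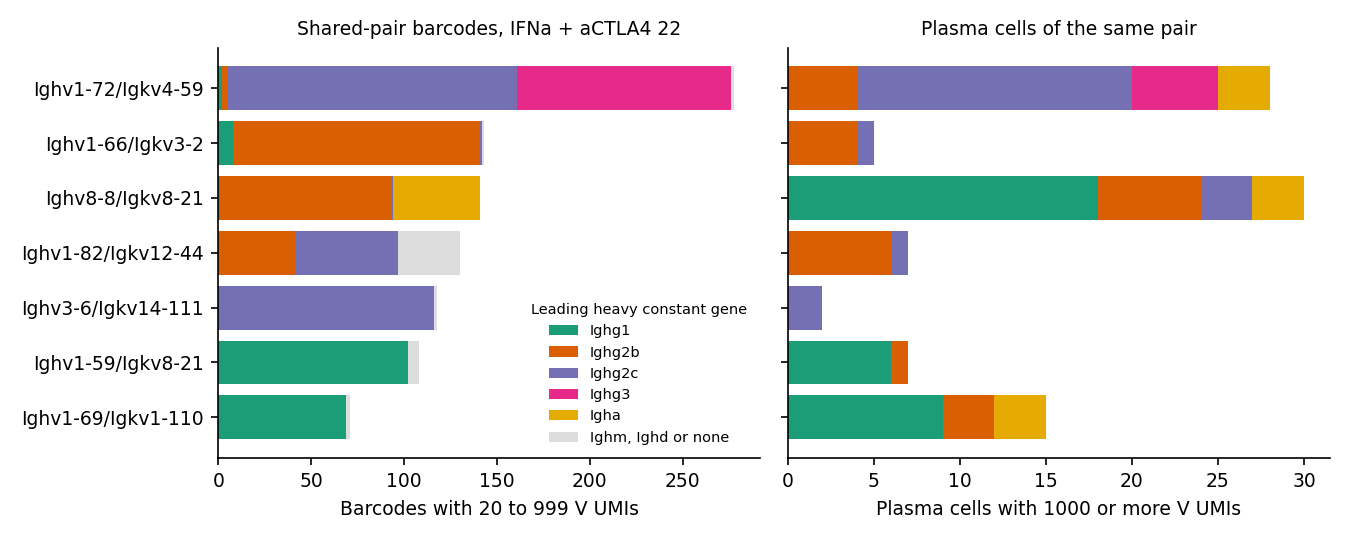
Number of barcodes by leading heavy constant gene, for the 7 shared-pair sets of IFNa + aCTLA4 22 (left) and for plasma cells with 1000 or more V UMIs and the same pair (right). Bars are stacked counts, and the panels differ in scale. Ighg1 leads 18 of 30 Ighv8-8/Igkv8-21 plasma cells and 1 of 141 barcodes of that set.

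Of the 113 Ighv genes, 88 were dominant in at least 1 B cell of the combination, 96 and 87 in IFNa 18 and 23, and 87 and 55 in Control 11 and 25. Of the 103 Igkv genes, 78 were in the combination, 81 and 73 in IFNa, and 83 and 54 in Control. An Ighv gene was called in 1029 of 1261 B cells of IFNa + aCTLA4 22, in 1149 of 1277 and 610 of 679 of IFNa 18 and 23, and in 587 of 636 and 132 of 137 of Control 11 and 25. The effective number of Ighv genes was 45.8 in the combination (48.1 without shared-pair barcodes), 50.7 and 47.7 in IFNa, and 51.2 and 43.9 in Control. For Igkv it was 44.0 in the combination (45.0 without them), 44.8 and 46.1 in IFNa, and 44.5 and 49.0 in Control.
IFNa and Control livers overlapped for both chains. IFNa averaged 49.2 ± 2.10 Ighv genes against 47.6 ± 5.19 in Control, and 45.5 ± 0.887 Igkv genes against 46.8 ± 3.22 in Control (SD, n = 2 each). An exact 2-sided permutation test gave p = 1.0 for each chain, and the smallest p that 2 against 2 libraries allow is 0.333. At an equal number of called cells, 132 for Ighv, the expected number of distinct genes was 53.6 in the combination, 56.6 and 55.6 in IFNa, and 56.6 and 55.0 in Control. At 123 called cells for Igkv it was 50.1 in the combination, 50.9 and 51.3 in IFNa, and 52.9 and 54.0 in Control.

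Of the Ighv genes, 47 were dominant in B cells of all 5 libraries and 9 in none, and of the Igkv genes, 50 were dominant in all 5 and 8 in none. Among the 352 gated plasma cells, against 3990 B cells, 39 Ighv and 37 Igkv genes led at least 1.

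The most used heavy gene of B cells was Ighv1-26, at 5.54% of called cells in the combination, 6.01% and 6.39% in IFNa 18 and 23, and 5.79% and 6.06% in Control 11 and 25. Ighv3-6 followed at 3.98% in the combination, 3.66% and 4.75% in IFNa, and 2.73% and 6.82% in Control, whose livers set the range. Ighv3-6 leads a shared-pair set. It led 41 of 1029 called B cells of the combination with shared-pair barcodes and 30 of 947 without them. Ighv9-3 had 2.82% in the combination, 3.13% and 3.61% in IFNa, and 3.92% and 3.79% in Control.
Ighv1-82, a leading gene of the gated plasma cells, led 4.18% of called B cells in the combination, 3.48% and 3.28% in IFNa, and 3.58% and 2.27% in Control. It too leads a shared-pair set, and led 43 of 1029 called B cells of the combination with those barcodes and 30 of 947 without them. Genes of the Ighv1 family, the largest with 57 members, led 62.4% of called B cells of the combination (61.6% without shared-pair barcodes), 58.2% and 57.4% in IFNa, and 57.2% and 56.1% in Control.

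Among kappa genes, Igkv10-96 led 5.98% of called B cells of the combination, 5.31% and 5.53% in IFNa 18 and 23, and 7.22% and 2.44% in Control 11 and 25. Igkv1-117 led 4.65% in the combination, 4.71% and 4.88% in IFNa, and 3.09% and 4.88% in Control. Igkv1-135 led 3.32% in the combination, 5.23% and 4.72% in IFNa, and 5.15% and 1.63% in Control.
Igkv9-120 led 1.90% in the combination, 3.00% and 2.93% in IFNa, and 3.78% and 6.50% in Control. For each of these 4, the spread between the 2 Control livers was at least as wide as the distance between IFNa and Control means. The Igkv4 family, with 29 members, led 13.2% in the combination, 13.4% and 17.2% in IFNa, and 15.5% and 17.1% in Control. Usage ranked alike across livers: Spearman's rho between 2 libraries ran from 0.584 to 0.906 over 113 Ighv genes and from 0.672 to 0.939 over 103 Igkv genes, lowest in the pairs with Control 25, whose 137 B cells are the fewest.

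**Figure D4:**
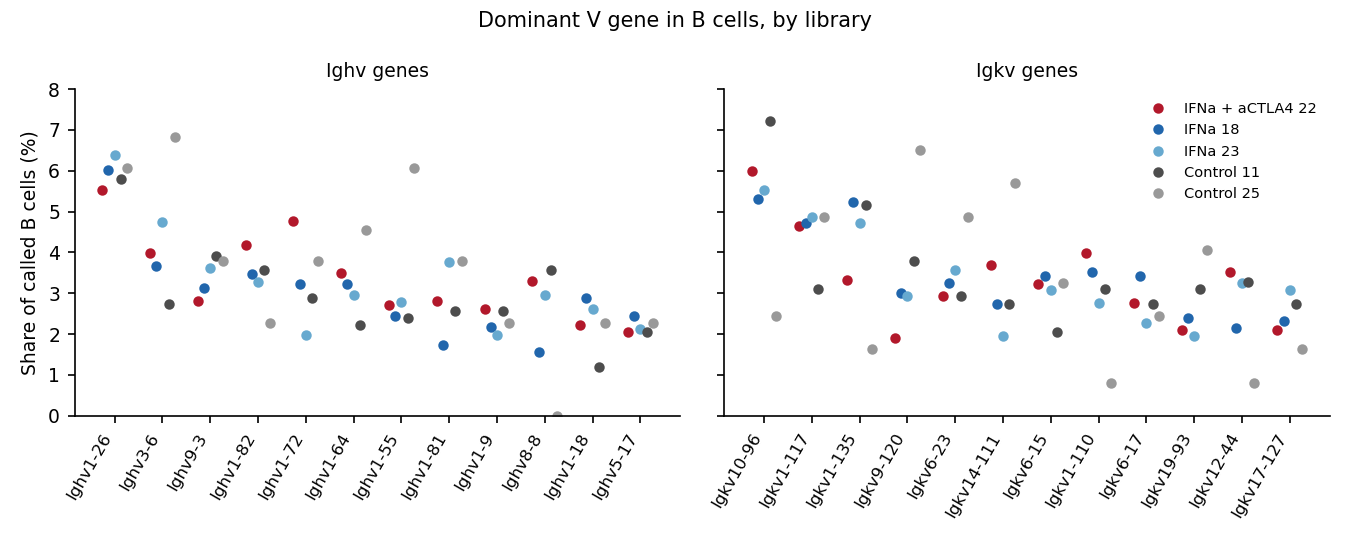
Share of called B cells (%) led by each of the 12 most used Ighv genes (left) and Igkv genes (right), 1 point per library, coloured as in the legend. Shared-pair barcodes are included. Ighv1-26 lies between 5.54% and 6.39% in the 5 libraries, while Control 25, with the fewest B cells, is the most scattered.

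Among B cells without shared-pair barcodes, 33.4% of the paired cells of the combination had a pair found in 2 or more cells, against 36.2% and 23.1% in IFNa 18 and 23 and 20.1% and 3.39% in Control 11 and 25; these shares grow with the number of cells. Without shared-pair barcodes, 875 paired B cells of the combination held 706 distinct pairs, 1063 and 566 of IFNa 18 and 23 held 840 and 494, and 541 and 118 of Control 11 and 25 held 483 and 116. The largest pair led 6 cells in the combination, 9 and 5 in IFNa, and 3 and 2 in Control. The 9 cells in IFNa 18 were Ighv11-2/Igkv14-126, a pair known in mice from B-1 cells that bind phosphatidylcholine. Over all livers 18 of 24 Ighv11-2 B cells carried Igkv14-126, against 23 of 3519 other B cells (0.654%), and this pair, singled out after its values were seen, led 5 B cells of the combination and 1 plasma cell of Control 11.

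Sums over all kept cells of a library were compared between groups with edgeR's quasi-likelihood test over 18467 genes, Benjamini-Hochberg adjusted. In bulk sums of this kind, more cells of a type and more RNA per cell cannot be told apart. Against Control, 56 of 214 tested members passed an adjusted p of 0.05 in the combination (54 higher, 2 lower), where 18.1% of all genes passed. Upward calls were 7.66% of all genes and downward calls 10.4%. Of the 54 higher members, 27 were heavy and 27 kappa, and 39 led at least 1 of the combination's plasma cells with 1000 or more V UMIs, against 16 of the 158 members not called. The UMIs of those plasma cells are part of the sums tested, so this contrast is no separate support. The median log2 fold change was 1.20 over the members (1.18 with the 19 members at 0 to 3 UMIs in a group set to their bound) and 0.01 over all genes. The count was 35 without Control 11, and 55 without shared-pair barcodes. Since the members were picked on totals that the combination dominates, these counts describe and do not test the V genes as a group.

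Among the members called, the 5 largest rises were those of 4 genes that led plasma cells and of Ighv1-62-3, a near copy of one. Igkv8-21 had 394687 UMIs in the combination's kept cells, against 93 and 11 in Control 11 and 25 (log2 fold change 12.19 ± 0.65 SE, edgeR adjusted p = 0.00272). Ighv1-59 had 46793 against 35 and 11 in Control (10.07 ± 0.24, adjusted p = 0.000404), and Igkv4-59 had 291154 against 260 and 125 in Control (9.34 ± 0.64, adjusted p = 0.00326). These genes were higher in the combination than in either Control liver by orders of magnitude. Ighv1-72 had 96510 UMIs against 187 and 43 in Control (8.84 ± 0.51, adjusted p = 0.00279). Ighv1-62-3, at 573 UMIs against 1 and 0 in Control, was 620 times higher relative to all UMIs (counting interval 111 to 24534), with edgeR adjusted p = 0.00651 and 0.0582 without Control 11. Almost all its UMIs lay in Ighv1-72 barcodes, as given above.
Large differences did not always pass. Ighv8-8 had 317728 UMIs against 388 and 11306 in Control 11 and 25, and its log2 fold change of 3.45 had edgeR adjusted p = 0.274. Ighv1-69, with 54570 against 92 and 27 in Control, had 8.89 and adjusted p = 0.0715, its IFNa livers holding 158 and 41817. Ighv1-82 rose by 7.42 (adjusted p = 0.00243) and Igkv12-44 by 6.86 (adjusted p = 0.00279). The 2 lower members were kappa genes of B cells: Igkv9-129 had 0 UMIs in the combination against 47 and 30 in Control, at least 23.7-fold lower by a floor of 3 counts (edgeR adjusted p = 0.0173), and Igkv12-40 had 7 against 37 and 15 in Control (-2.94 ± 0.71, adjusted p = 0.0431, and 0.0629 without Control 11 and 0.0844 without Control 25).

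In IFNa against Control, 3 of 214 members passed (1.40%), all higher, where 1.23% of all genes passed (1.06% higher, 0.168% lower). The median log2 fold change was 0.74 over the members and 0.01 over all genes, 150 members had a positive one against 50.8% of all genes, and 67 members had an unadjusted p under 0.05. Igkv4-92 had 125 and 106 UMIs in IFNa 18 and 23 against 0 and 0 in Control, at least 50.3-fold higher (edgeR adjusted p = 0.0249). Ighv1-9 had 17570 and 6080 in IFNa against 184 and 74 in Control (5.67 ± 0.72, adjusted p = 0.0346), and 1 cell held 69.0% of its UMIs in IFNa 18 and 97.2% in IFNa 23. Igkv3-5 had 298 and 249 in IFNa against 63 and 11 in Control (2.29 ± 0.28, adjusted p = 0.0313). None of the 3 passed when either Control library was left out: 1 member, none of these, passed without Control 11 and 0 without Control 25 (54 at an unadjusted p under 0.05), while 33 passed without IFNa 18 and 16 without IFNa 23. DESeq2 called 26.

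The combination against IFNa gave 39 members of 214 (38 higher, 1 lower), where 7.29% of all genes passed (1.98% higher, 5.31% lower), and the median log2 fold change was 0.34 over the members and 0.00 over all genes. It shares its combination library with the comparison to Control, so the calls are not independent. Igkv8-21 had 394687 UMIs against 279 and 149 in IFNa 18 and 23 (10.63, edgeR adjusted p = 0.00618). Ighv1-66 had 45031 against 91 and 59 in IFNa (9.02, adjusted p = 0.00618), Igkv4-59 rose by 9.29 (adjusted p = 0.00759), Ighv1-72 by 8.97 (adjusted p = 0.00618) and Ighv1-59 by 8.81 (adjusted p = 0.00052). The lower member was Igkv9-129, with 0 UMIs against 80 and 102 in IFNa, at least 36.7-fold lower (adjusted p = 0.0295). The count was 61 without IFNa 18 and 59 without IFNa 23.

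Within B cells, 202 members were tested over 12014 genes. In the combination against Control 10 members passed (8 higher, 2 lower), where 0.949% of all genes passed (0.882% higher, 0.0666% lower), and 4 passed without shared-pair barcodes (2 higher, 2 lower). The median log2 fold change was 0.08 over the members (0.07 with bounds) and -0.02 over all genes. The count was 18 without IFNa 18, 20 without IFNa 23 and 29 without Control 11. Ighv1-66 had 1791 UMIs against 79 and 39 in Control 11 and 25 (log2 fold change 3.23 ± 0.21, edgeR adjusted p = 0.0044), and without those barcodes 87 UMIs, a log2 fold change of -1.10 and adjusted p = 0.344. Igkv8-21 had 2859 against 87 and 6 in Control (4.45 ± 0.50, adjusted p = 0.0191), and 457 UMIs, 1.88 and adjusted p = 0.373 without them. Ighv1-69 had 686 against 63 and 23 in Control (2.36 ± 0.18, adjusted p = 0.00675), and 122 UMIs, -0.078 and adjusted p = 0.962 without them. Of the 1261 B cells of the combination, 82 were shared-pair barcodes. They were picked by their leading V pair, and Ighv1-66, Igkv8-21, Ighv1-69 and Ighv1-59 each lead a set. Leaving them out must lower these genes in the combination. The fall in these values was thus fixed by that choice, and nothing is read from it.
Ighv1-59 had 367 UMIs against 29 and 11 in Control (2.56 ± 0.35, adjusted p = 0.0348), with adjusted p = 0.442 without those barcodes, 0.116 without Control 11 and 0.0648 without Control 25. The rise of Ighv2-6 rested on no single cell: 159 UMIs in 108 cells of the combination against 3 and 0 UMIs in Control, 32.7 times higher relative to all UMIs (counting interval 10.99 to 160.2), edgeR adjusted p = 0.0197, and 153 UMIs with adjusted p = 0.0217 without shared-pair barcodes. Without those barcodes 8.65% of the combination's B cells had an Ighv2-6 UMI, against 9.56% of its T cells. The source of the Ighv2-6 UMIs in B cells was not tested. The 2 lower members were absent from the combination's B cells: Igkv9-129 with 0 UMIs against 45 and 30 in Control (at least 40.5-fold lower, adjusted p = 0.0191) and Igkv12-40 with 0 against 37 and 15 in Control (at least 28.1-fold lower, adjusted p = 0.0348; 0.0504 without Control 11 and 0.0547 without Control 25). Few cells carried either gene. Igkv9-129 had UMIs in 0 B cells of the combination, 5 and 1 of IFNa 18 and 23, and 3 and 1 of Control 11 and 25. Igkv12-40 had UMIs in 0 B cells of the combination, 4 and 2 of IFNa, and 3 and 1 of Control.

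In B cells of IFNa against Control, 1 member passed, where 0.608% of all genes passed (0.549% higher, 0.0583% lower): Igkv4-92, with 115 and 106 UMIs in IFNa 18 and 23 against 0 and 0 in Control (at least 30.9-fold higher, edgeR adjusted p = 0.0186), found in 6 and 5 cells of IFNa and in 0 and 0 of Control, and dominant in 3 and 0 of those IFNa cells. The count was 5 without IFNa 18, 11 without IFNa 23, 23 without Control 11 and 6 without Control 25, and DESeq2 called 8. The median log2 fold change was 0.20 over the members and 0.00 over all genes. In the combination against IFNa 3 members passed, where 0.0749% of all genes passed (0.0666% higher, 0.00832% lower). They were Ighv1-66 (4.16 ± 0.21, adjusted p = 0.00345), Ighv1-72 (2.33 ± 0.22, adjusted p = 0.0417) and Ighv1-69 (2.23 ± 0.17, adjusted p = 0.0166). Without shared-pair barcodes edgeR called 0 (25 at an unadjusted p under 0.05), and with every barcode DESeq2 called 10. All 3 genes lead a shared-pair set, so a fall without those barcodes was fixed by how they were picked. The count was 11 without IFNa 18 and 9 without each of IFNa 23, Control 11 and Control 25. The median log2 fold change was -0.08 over the members and -0.01 over all genes. Ighv1-72 had 984 UMIs in the combination's B cells and 426 without those barcodes, against 204 and 94 in IFNa.

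T cells should hold no V transcripts of immunoglobulin genes. A T cell was a barcode with a T cell receptor beta contig and Cd3e, and with neither Cd79a nor Ms4a1. V UMIs were found in 82.9% of 2802 T cells of IFNa + aCTLA4 22 (exact 95% interval 81.5 to 84.3), in 4.60% of 717 and 7.72% of 972 of IFNa 18 and 23, and in 3.18% of 692 and 22.03% of 118 of Control 11 and 25 (14.9 to 30.6). Median UMIs per T cell were 6421.5 in the combination, 5885 and 7277 in IFNa, and 5917.5 and 7718 in Control. With each cell thinned to 2000 UMIs, the shares were 45.3% in the combination, 1.67% and 2.56% in IFNa, and 0.996% and 7.81% in Control, after 64, 8, 9, 10 and 0 shallower cells were left out. Summed V UMIs in T cells came to 430 CPM (UMI counts scaled to the total UMIs of those cells, as counts-per-million) in the combination (272 without shared-pair barcodes), 7.17 and 10.4 in IFNa, and 8.80 and 25.2 in Control.

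Myeloid cells (5 or more Lyz2 UMIs), which should lack the genes too, had V UMIs as well. The shares were 83.7% of 817 cells (shared-pair barcodes left out; 82.8% of T cells without them) in the combination, 6.14% and 9.87% in IFNa 18 and 23, and 5.12% and 17.96% in Control 11 and 25, at medians of 10491, 9317 and 11926, and 11805.5 and 14130.5 UMIs per cell. They held 205 CPM in the combination, 7.90 and 11.6 in IFNa, and 5.10 and 13.5 in Control. These cells were deeper than the T cells. Thinned to 2000 UMIs, the share in Lyz2-high cells was 33.9% in the combination, 1.18% and 3.39% in IFNa 18 and 23, and 2.03% and 3.02% in Control 11 and 25, against 45.0% in T cells of the combination without shared-pair barcodes. Where the V UMIs in T cells and Lyz2-high cells came from was not tested.

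**Figure D5:**
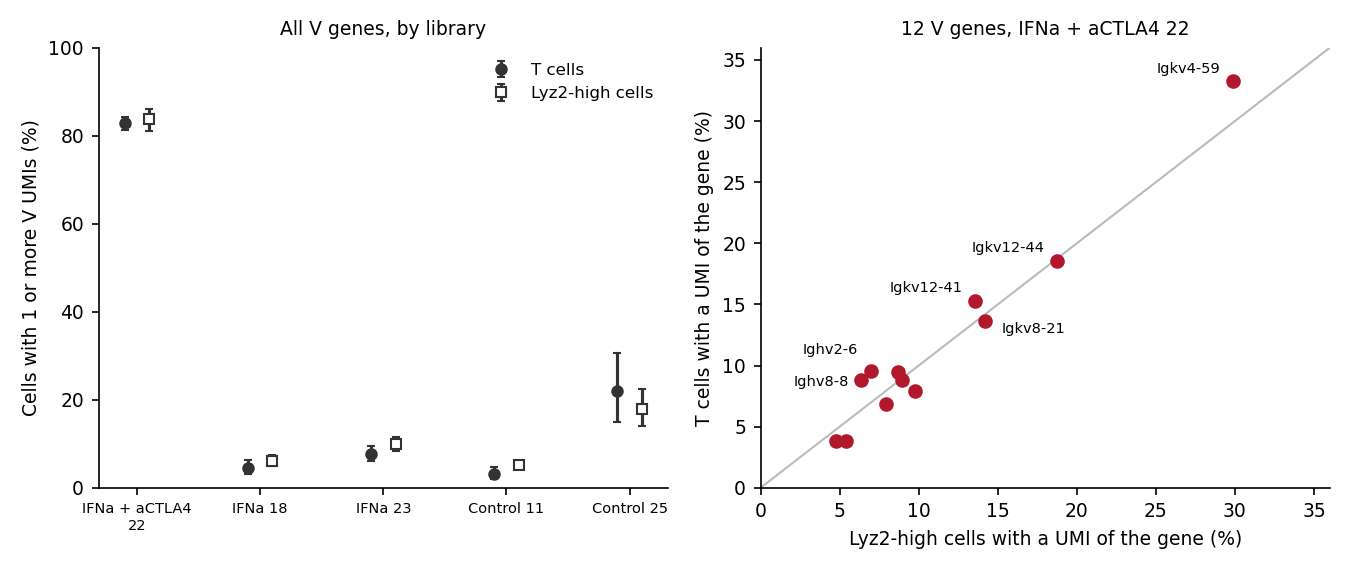
Left, share of cells with at least 1 V UMI (%) in T cells and in Lyz2-high cells of each library without shared-pair barcodes, with exact 95% binomial intervals. Right, share of T cells against share of Lyz2-high cells (%) with a UMI of each of 12 V genes in IFNa + aCTLA4 22 without shared-pair barcodes, with the line of equality. The combination stands at 82.8% and 83.7%, and Igkv4-59 is the highest gene at 33.3% and 29.9%.

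The genes with the most UMIs in T cells differed by library, and in several livers they were genes of that liver's plasma cells. In the combination, Igkv4-59 had 2420 UMIs in T cells, Igkv8-21 had 991 and Igkv12-44 had 953, and without shared-pair barcodes they had 1261, 411 and 635. In IFNa 23, Igkv17-121 led with 15, followed by Igkv14-111 with 8 and Ighv1-69 with 6. In IFNa 18 Igkv14-111 had 8, Igkv1-110 had 4 and Ighv1-9 had 3.
The Control livers had other genes in front. Igkv3-10 had 7 UMIs in T cells of Control 25, and Ighv1-58 and Igkv14-100, the genes of 2 of its plasma cells, had 4 each. Igkv3-10 too was a plasma cell gene there, with 35.6% of the Igkv UMIs in plasma cells with 1000 or more V UMIs. In Control 11, Ighv1-77 led with 9. Members with a T cell UMI numbered 102 in the combination, 22 and 37 in IFNa, and 25 and 13 in Control. In the combination without shared-pair barcodes, Spearman's rho between T cell and plasma cell UMIs was 0.711 over 113 Ighv genes and 0.687 over 103 Igkv genes, against 0.642 and 0.674 between T cell and B cell UMIs, all from 1 library. For Igkv the value with B cells was the higher one in IFNa 18 (0.303 against 0.157), IFNa 23 (0.444 against 0.404) and Control 11 (0.366 against 0.229). In Control 25 the Igkv value with plasma cells was higher (0.509 against 0.225). So was the Ighv value in IFNa 18 (0.139 against 0.0773), IFNa 23 (0.359 against 0.278), Control 11 (0.393 against 0.253) and Control 25 (0.531 against 0.0976). These libraries held 9 to 68 T cell UMIs per chain.

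Ighv2-6 went against this order. It had 1105 UMIs in the combination, spread over 790 barcodes with at most 29 in any 1 of them, and was dominant in 0 plasma cells. It made up 20.8% of the Ighv UMIs in T cells without shared-pair barcodes but 0.00307% of those in plasma cells with 1000 or more V UMIs. Shares of cells with an Ighv2-6 UMI were 9.56% in T cells and 6.98% in Lyz2-high cells. The other 4 libraries held 96 and 37 Ighv2-6 UMIs in IFNa 18 and 23, and 41 and 0 in Control 11 and 25. Where its UMIs came from was not tested.

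In T cell sums, 25 members passed the filter on low counts, a filter that only the combination's T cells let them pass. These members had to be higher there, so the counts of calls describe that library and nothing is read from them against the other genes. In the combination against Control 10 of the 25 passed, all higher, where 1.27% of 12972 genes passed (0.678% higher, 0.594% lower), and 8 passed without shared-pair barcodes, 4 without Control 11, 20 without IFNa 18 and 22 without IFNa 23. Igkv4-59 had 2420 UMIs in the combination (1261 without shared-pair barcodes) against 0 and 0 in Control, at least 238-fold higher. Igkv8-21 was at least 97.6-fold higher, Igkv12-44 at least 93.8-fold, Ighv1-72 at least 54.2-fold with 551 UMIs (205 without shared-pair barcodes) and Igkv12-41 at least 49.4-fold with 502 UMIs (498 without them).
Against IFNa 9 passed (6 without shared-pair barcodes), where 0.224% of all genes passed (0.139% higher, 0.0848% lower). Igkv4-59 was at least 511-fold higher, Igkv8-21 at least 209-fold, Igkv12-44 at least 201-fold, Ighv1-72 at least 116-fold and Igkv12-41 at least 106-fold. By edgeR 0 passed with doublet-scored barcodes kept (23 at an unadjusted p under 0.05), and 16 passed without IFNa 18 and 17 without IFNa 23. In IFNa against Control edgeR called 0 of the 25, where 0.578% of all genes passed (0.524% higher, 0.054% lower), with 0 at an unadjusted p under 0.05 and 0 by DESeq2. Of the 25, 15 had 0 UMIs in all 4 of those libraries, so a call was not possible for them.

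Genes of the immunoglobulin pathway outside the V loci were counted from lists. In the sums over all kept cells, where 7.66% of all genes passed higher and 10.4% lower, the combination against Control had 0 higher and 1 lower of 9 genes of V(D)J recombination and hypermutation, 0 and 1 of 4 pre-B receptor genes, 0 and 0 of 8 genes of B cell receptor signalling, 0 and 0 of 13 transcription factors, and 2 and 0 of 12 genes of secretion. Dntt, the polymerase that adds bases at V(D)J joints, had 1.88 CPM in the combination, 2.06 and 2.86 in IFNa 18 and 23, and 6.33 and 6.58 in Control 11 and 25 (-1.72 ± 0.33, edgeR adjusted p = 0.0239 for the combination against Control). Igll1, a surrogate light chain gene, had 0 UMIs in the combination, 53 and 22 in IFNa, and 47 and 8 in Control (adjusted p = 0.0251). Creld2, a protein of the endoplasmic reticulum stress response, rose by 1.51 (119 CPM, against 35.3 and 53.2 in Control, adjusted p = 0.0356), and Sec11c, a signal peptidase subunit, by 0.60 (adjusted p = 0.0374). Of the transcription factors, Bcl6 fell by 0.69 in the combination against IFNa (adjusted p = 0.0335).
No list gene passed in IFNa against Control, where 1.23% of all genes did. Within B cells, Jchain, which links secreted IgA and IgM, had 621 UMIs in the combination, 9 and 13 in IFNa 18 and 23, and 1 and 2 in Control 11 and 25 (6.99 on the log2 scale, edgeR adjusted p = 0.00675 against Control). Without shared-pair barcodes the combination had 173, a log2 fold change of 5.15 and adjusted p = 0.0529. B cells lie outside the plasma cell gate, which uses Jchain, so these sums were cut on the gene tested. That gate took out 89 barcodes with Cd79a and Ms4a1 in the combination, 3 and 9 in IFNa 18 and 23, and 1 and 0 in Control 11 and 25. Nothing is read from the B cell p-values of Jchain. Within T cells Jchain had 364 UMIs in the combination, 1 and 3 in IFNa, and 2 and 3 in Control (4.32, edgeR adjusted p = 0.0414), and without shared-pair barcodes 238 in the combination, 3.67 and adjusted p = 0.101. In T cells of the combination against Control 1 other list gene passed, Syk, a kinase of antigen receptor signalling, with 10.7 CPM in the combination against 29.96 and 26.8 in Control 11 and 25 (-1.38, edgeR adjusted p = 0.0387, and 0.0391 without shared-pair barcodes).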

How the data were processed

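The deposited values are raw UMI counts per gene and cell barcode, which the authors obtained, per the submitters' processing notes, from Cell Ranger 7.0.1 and the mm10 build. T cell receptor contigs came as annotation tables. No normalization or replicate pooling is stated. Libraries held 863 to 9605 barcodes and 10464216 to 69856071 UMIs. Barcodes needed 200 or more genes and no more than 15% mitochondrial UMIs, and expected doublets (0.8% per 1000 barcodes) were removed by a simulated-doublet score over 30 neighbours, 6 to 728 per library. The 5 libraries were mapped to groups from their titles, and the liver numbers are unique to each group.

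UMI counts were summed per library over all kept cells, B cells or T cells and tested with edgeR 4.0.16 (TMM, filterByExpr, quasi-likelihood F test, 3 groups in 1 fit) in R 4.3.3, with Benjamini-Hochberg adjustment over all genes tested. The script was tested on simulated data. DESeq2 1.42.0, other scalings, filters and gates, doublets kept and each library left out were alternatives. Other steps used Python 3.11.15, scipy 1.17.1, scikit-learn 1.9.0 and Biopython 1.88. Binomial intervals are exact (95%), and the floor for a group at 0 is 3 counts over the group. A pair of genes shares a stretch when 90 bases of their coding sequences are identical.

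The genes named are the leading heavy and kappa gene of each library's plasma cells, the 4 and 4 leading genes over all plasma cells and over B cells, up to 5 called members each way per comparison, the 3 members with the most T cell UMIs per library, Igkv4-59, members next to the UMI minimum, and called genes of a pathway list. The members and lists were chosen with earlier results of these data known. The shared-pair sets, the minimum of 1000 V UMIs, the Lyz2 comparison, second genes and other named genes were chosen after the data were seen.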

Additional observations from a re-analysis of the deposited data

How the results depend on the processing

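No paired analysis was possible because the liver numbers are unique to each group. Counts of V genes past the edgeR threshold moved most with the low-count filter, the choice of tool and the libraries entered, and the cause was not tested. With each library left out in turn, the whole-library counts ran from 35 to 80 for the combination against Control (56 with all), 0 to 33 for IFNa against Control (3) and 30 to 61 for the combination against IFNa (39). In B cells they ran from 12 to 29 (10), 1 to 23 (1) and 9 to 11 (3), and in T cells from 4 to 22 (10) for the combination against Control and 12 to 17 (9) against IFNa. With no low-count filter, 52 and 59 passed in the whole-library sums for IFNa against Control and the combination against IFNa, 76, 67 and 58 in the 3 B cell comparisons, and 23 and 23 in T cells for the combination against Control and against IFNa. By DESeq2, IFNa against Control gave 26 in the whole-library sums and 8 in B cells, and the combination against IFNa 10 in B cells. With doublets kept, the B cell counts were 16, 6 and 5, and the T cell count for the combination against IFNa was 0 by edgeR (23 at an unadjusted p under 0.05). Without shared-pair barcodes, an alternative chosen after seeing the data, the B cell counts were 4 for the combination against Control and 0 against IFNa (25 at an unadjusted p under 0.05). There Ighv1-66 turned to -1.10 against Control and -0.14 against IFNa, and Ighv1-69 to -0.078 and -0.20. Both genes lead a set that was left out, so lower values were fixed by that choice.

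The plasma cell share of the combination was 5.22% at 5 or more Jchain UMIs, 1.71% at 30 or more, 4.05% with doublets kept and 1.60% at 1000 or more V UMIs. Its most frequent plasma Ighv gene held 22.1% at 1000 V UMIs and 21.99% without shared-pair barcodes, and its most frequent Igkv gene 26.1% without them. When a call needed over 80% of V UMIs, the effective Igkv number of B cells was 40.8 in the combination and 53.8 in Control 25, and the difference of IFNa minus Control was -3.72. Thinned to 1000 UMIs, 28.6%, 0.830% and 1.58% of T cells of the combination, IFNa 18 and IFNa 23 held a V UMI, and with doublets kept 43.1% of the combination's. The other 217 values and counts kept their side, and of 337 single-gene values 25 lost their call. T cells of IFNa against Control could not be fitted without the combination, since no V gene then passed the filter. Control 25, with 844 cells, and the 4 to 7 plasma cells of 3 libraries set the widest errors.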
